A study of Mus musculus with 6 samples.

Results

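The aryl hydrocarbon receptor pathway was followed through 6 genes: the receptor gene Ahr, its partner gene Arnt, the repressor genes Ahrr and Tiparp, and the cytochrome P450 genes Cyp1a1 and Cyp1b1. They were taken by symbol from the 55416 genes of the count table, and all 6 were found and passed the filter on low counts, which left 17659 genes. RNA came from primary keratinocytes of Cebpb knockout pups (3 libraries, numbered 4, 5 and 6) and wild type pups (3 libraries, numbered 1, 2 and 3). C/EBPβ, the product of Cebpb, is a transcription factor of the leucine zipper class, and the series title asks about apoptosis after UVB damage and about type I interferon and TNF. Both genotypes had a C57BL/6J:129 hybrid background and were 1 to 2 days old when the epidermis was taken. Cells of both genotypes grew in 0.05 mM calcium with EGF, and 5 days after plating both received 10 mJ/cm2 of UVB in PBS, with the medium removed, and were collected 8 h later. The labels name no tissue-limited deletion, and no unirradiated cells were analysed here, so each value compares genotypes after UVB and does not measure the response to UVB.

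AHR is a transcription factor of the bHLH-PAS family that waits in the cytosol with the chaperone HSP90 until a ligand binds. It then enters the nucleus, pairs with ARNT and binds xenobiotic response elements (XREs) near genes such as Cyp1a1. In skin, UVB turns tryptophan into a photoproduct, FICZ, that binds AHR with high affinity and is cleared by CYP1A1. AHRR and TIPARP are products of AHR target genes that restrain the receptor, AHRR by competing with it for ARNT and XREs and TIPARP by attaching ADP-ribose to it.

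Total counts were 81256192 to 92987497 in knockout libraries and 107757415 to 122797031 in wild type libraries. Cebpb had 78, 109 and 78 counts in knockout libraries, against 18184, 17628 and 12036 counts in wild type libraries, as the labels state. The keratinocyte markers Krt5, Krt14, Krt15, Trp63, Itga6, Itgb4, Dsg3 and Cdh1 summed to 20723 to 21756 CPM (counts relative to the library total, with totals scaled by TMM, the trimmed mean of M-values) in knockout libraries and 35425 to 40157 CPM in wild type libraries. Most of this sum was Krt5 (mean 11537 CPM in knockout and 19824 CPM in wild type libraries) and Krt14 (7872 and 14956 CPM). Of the same markers Itgb4 was called higher in knockout cells (log2 fold change 0.52) and Cdh1 was not called (-0.08). The cultures also held melanocyte transcripts: Pmel, Dct, Mlana, Tyr, Tyrp1 and Sox10 summed to 605 to 687 CPM in knockout libraries and 691 to 780 CPM in wild type libraries. Fibroblast markers summed to 17.2 to 21.3 CPM in knockout libraries and 7.07 to 10.03 CPM in wild type libraries, with Lum at 0 counts in every library. Postn alone made that sum higher in knockout libraries: without it the other fibroblast markers summed to 5.36 to 5.65 CPM in knockout libraries and 6.33 to 9.54 CPM in wild type libraries. Markers of Langerhans cells and macrophages (2.70 to 3.03 CPM in knockout and 3.81 to 5.86 CPM in wild type libraries), of T cells (0.636 to 0.662 CPM in knockout and 0.215 to 0.321 CPM in wild type libraries) and of endothelium (4.95 to 5.87 CPM in knockout and 6.97 to 7.48 CPM in wild type libraries) were scarce, with Cd3e, Cd3d, Cd2, Cdh5 and Emcn at 0. Trdc made the T cell sum higher in knockout libraries, with 39, 32 and 50 counts there against 1, 8 and 1 counts in wild type libraries. Lck of the same list was not called. Csf1r (mean 2.35 CPM in knockout and 3.22 CPM in wild type libraries) made most of the Langerhans cell and macrophage sum. In that list Cd74 was called higher in knockout cells (log2 fold change 1.13) and Csf1r (-0.46) and Lyz2 (-4.59) lower. Kdr (4.77 and 6.36 CPM) made most of the endothelial sum, and Pecam1 and Tie1 were not called. Transcripts of the Y chromosome (Uty, Kdm5d, Ddx3y and Eif2s3y) added up to 0.101 to 0.158 CPM in knockout libraries and 60.7 to 68.1 CPM in wild type libraries, so the sex of the cells differed along with the genotype. Mitochondrial genes took 1.79 to 2.17% of counts in knockout libraries and 1.47 to 1.64% in wild type libraries. These sums and this share separate the genotypes without overlap and so move with every difference given here; their part in those differences was not tested. In such bulk RNA, fewer cells of a type, less RNA per cell and a change in the marker genes alone cannot be told apart.

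By edgeR's quasi-likelihood test, 4 of the 6 genes fell in knockout cells and 2 were not called. Of all genes tested 48.6% were called at an adjusted p under 0.05, with 23.7% of all genes lower and 24.8% of all genes higher, so a call as such was common in this comparison. The median log2 fold change was -0.37 over the 6 genes and 0.01 over all genes. Cyp1a1 and Tiparp fell most, Ahr and Arnt by less, while Cyp1b1 and Ahrr were not called. A fall of at least 1 log2 unit, as in Cyp1a1 and Tiparp, was found in 5.94% of all genes.

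**Figure D1:**
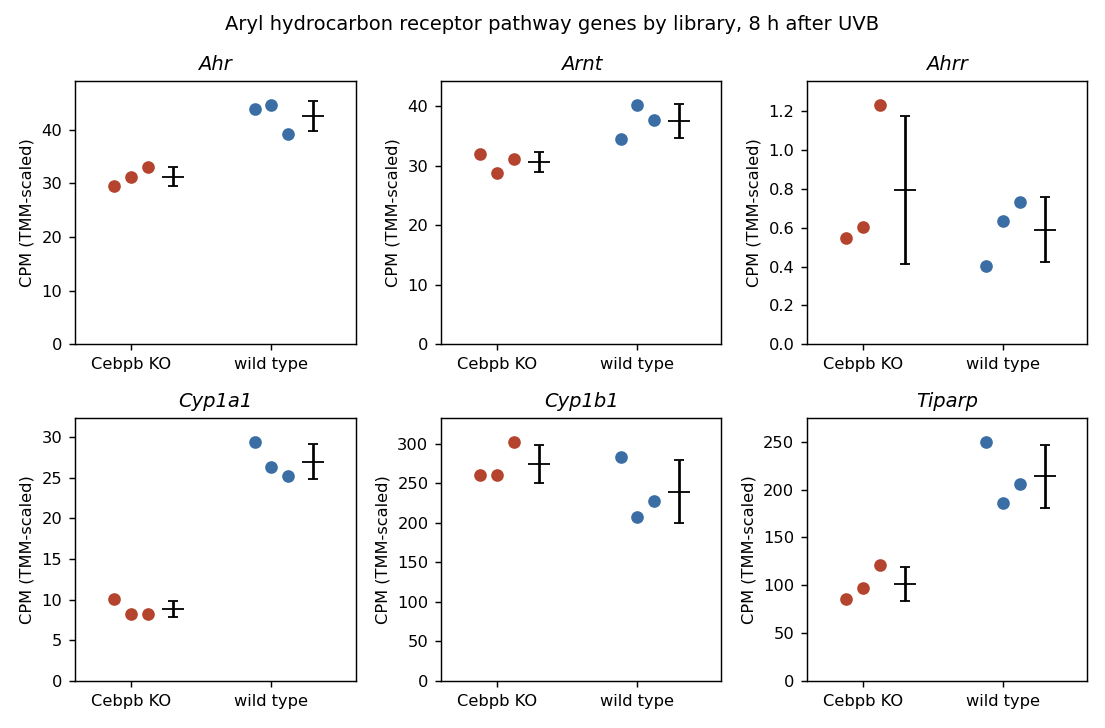
CPM of each of the 6 genes (linear axes from 0) in 3 Cebpb knockout and 3 wild type libraries, with points for libraries and black marks for mean ± SD. Knockout and wild type points are apart in Ahr, Arnt, Cyp1a1 and Tiparp and overlap in Ahrr and Cyp1b1.

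Ahr (ENSMUSG00000019256), the receptor gene, stood at 29.5, 31.2 and 33.1 CPM in knockout libraries 4, 5 and 6, against 43.8, 44.6 and 39.3 CPM in wild type libraries 1, 2 and 3. Every knockout library lay below every wild type library, a separation that 56.4% of all genes shared in one direction or the other. The log2 fold change was -0.45 ± 0.08 (SE, edgeR adjusted p = 0.000154), or 73.3% of the wild type level, and -0.25 when library totals replaced TMM (edgeR adjusted p = 0.0168).

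Arnt (ENSMUSG00000015522) encodes the nuclear partner that AHR shares with the hypoxia factors. Its level was 32.0, 28.8 and 31.1 CPM in knockout libraries and 34.5, 40.2 and 37.7 CPM in wild type libraries. The groups did not overlap, although knockout library 4 and wild type library 1 were close. Arnt fell by 0.29 ± 0.08 log2 units (SE, edgeR adjusted p = 0.00670). Scaling by library totals shifts the median gene upward by 0.20 log2 units relative to TMM, and with it Arnt stood at -0.090 and was not called (edgeR adjusted p = 0.411, with a range of 0.00179 to 0.411 over 13 alternatives).

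Ahrr (ENSMUSG00000021575), the repressor gene, was the scarcest of the 6 in both genotypes. It had 52, 60 and 106 counts in knockout libraries and 45, 74 and 73 counts in wild type libraries, or 0.546, 0.605 and 1.23 CPM against 0.403, 0.637 and 0.732 CPM. Only knockout library 6 exceeded the wild type range. The log2 fold change was 0.42 ± 0.35 (SE, edgeR adjusted p = 0.342), and without knockout replicate 6 it was -0.033, so no direction can be given.

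Tiparp (ENSMUSG00000034640), the gene of the ADP-ribosyltransferase that marks AHR, stood at 85.6, 97.2 and 120.9 CPM in knockout libraries and at 250.03, 186 and 205 CPM in wild type libraries. The highest knockout value was below the lowest wild type value. Tiparp fell by 1.08 ± 0.14 log2 units (SE, edgeR adjusted p = 0.000175), to 47.3% of wild type. An antisense gene model, 4931440P22Rik, overlaps its exons and had 1765 to 2246 counts in knockout libraries and 2013 to 2805 counts in wild type libraries. Without a stated strand setting its reads cannot be told apart from those of Tiparp, which had 8145 to 10396 counts in knockout libraries and 20475 to 27889 counts in wild type libraries.

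The promoters of the 4 AHR target genes are shown because each held the short sequence GCGTG, the XRE core, and the genes moved differently. They are RefSeq sequences of the build GRCm38.p6 (the counts were made on GRCm39), matched by symbol for 5 of the 6 genes, from 250 bases before to 50 after the start, read 5′ to 3′ along the gene. Capitals mark the XRE core GCGTG on either strand (CACGC on the other strand).
Cyp1a1 (chr9:57697363-57697662, plus strand): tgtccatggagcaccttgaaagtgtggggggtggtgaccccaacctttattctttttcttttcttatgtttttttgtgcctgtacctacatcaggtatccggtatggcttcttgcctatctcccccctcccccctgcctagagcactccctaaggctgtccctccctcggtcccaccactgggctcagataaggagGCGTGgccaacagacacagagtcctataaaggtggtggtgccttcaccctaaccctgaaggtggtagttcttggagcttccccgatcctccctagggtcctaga
Cyp1b1 (chr17:79715012-79715311, minus strand): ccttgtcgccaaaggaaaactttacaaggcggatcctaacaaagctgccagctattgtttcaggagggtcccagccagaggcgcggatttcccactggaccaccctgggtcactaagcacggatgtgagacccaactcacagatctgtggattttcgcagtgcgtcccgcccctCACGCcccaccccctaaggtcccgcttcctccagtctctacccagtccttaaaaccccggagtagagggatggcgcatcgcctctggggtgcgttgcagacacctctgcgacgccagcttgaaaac
Tiparp (chr3:65528197-65528496, plus strand): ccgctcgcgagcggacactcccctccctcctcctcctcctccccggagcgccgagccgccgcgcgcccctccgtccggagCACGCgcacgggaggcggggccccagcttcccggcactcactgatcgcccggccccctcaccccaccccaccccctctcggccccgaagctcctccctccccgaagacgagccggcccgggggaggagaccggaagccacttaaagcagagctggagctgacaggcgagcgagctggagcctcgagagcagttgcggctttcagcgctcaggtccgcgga
Ahrr (chr13:74292282-74292581, minus strand): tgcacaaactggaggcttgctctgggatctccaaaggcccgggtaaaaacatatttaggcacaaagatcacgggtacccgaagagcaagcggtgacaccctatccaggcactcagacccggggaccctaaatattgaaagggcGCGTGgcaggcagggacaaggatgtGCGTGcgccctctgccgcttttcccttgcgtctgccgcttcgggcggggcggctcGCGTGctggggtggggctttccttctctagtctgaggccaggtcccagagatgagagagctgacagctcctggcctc
The core began 54 bases before the start in Cyp1a1, 76 in Cyp1b1, 170 in Tiparp, and 107, 82 and 27 in Ahrr, and the Arnt promoter held 1 as well. Of all 32851 promoters of that length, 32.4% held GCGTG on either strand. The longer form TNGCGTG, which contains GCGTG, was present in Ahrr alone among the 5 and in 5.07% of all promoters. The C/EBP-type motif TTGCNNAA was in 10.8% of all promoters and its letters were in none of these 5 windows. The gene with the deepest fall and the P450 gene that was not called thus each held 1 core in this window. Sequence outside the window was not searched, and binding of AHR to these matches was not tested.

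Cyp1a1 (ENSMUSG00000032315) encodes the P450 enzyme whose induction is the usual readout of AHR activity. Its level was 10.0, 8.26 and 8.26 CPM in knockout libraries, against 29.4, 26.3 and 25.2 CPM in wild type libraries. The groups were far apart, and each group was tight. Cyp1a1 fell by 1.61 ± 0.11 log2 units (SE, edgeR adjusted p = 3.37e-09), to 32.8% of wild type. Its neighbour and close relative Cyp1a2, a P450 gene of liver, had 1, 0 and 0 counts in knockout libraries and 4, 1 and 2 counts in wild type libraries, and was not tested.

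Cyp1b1 (ENSMUSG00000024087) encodes the other P450 of this family outside the liver, which oxidises oestrogens and polycyclic hydrocarbons. It stood at 260.1, 261 and 303 CPM in knockout libraries and at 284, 207 and 227 CPM in wild type libraries. Wild type library 1 lay within the knockout range and the other 2 wild type libraries below it. The log2 fold change was 0.20 ± 0.10 (SE, edgeR adjusted p = 0.141). It was called higher without wild type replicate 1 (0.34, edgeR adjusted p = 0.000914), when libraries were scaled by their totals (0.40, edgeR adjusted p = 0.00246) and when no genes were filtered out (0.20, edgeR adjusted p = 0.00699). Over 13 alternatives its adjusted p ranged from 0.000914 to 0.420.

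**Figure D2:**
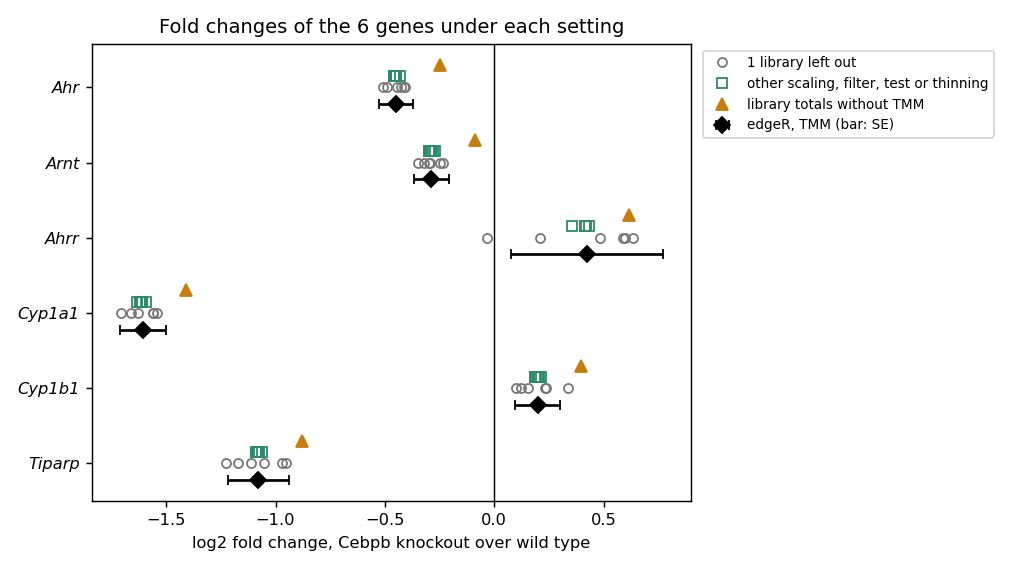
Log2 fold changes (knockout over wild type) of the 6 genes with SE bars for the edgeR fit, and without bars under each alternative setting. Cyp1a1, Tiparp, Ahr and Arnt stay below 0 throughout, Cyp1b1 stays above 0, and Ahrr reaches -0.033 without knockout replicate 6.

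Levels of different genes were compared as CPM per kb of exon. In knockout cells the order was Cyp1b1 (47.0 ± 4.2 CPM per kb, SD, n = 3), Tiparp (23.2 ± 4.1), Ahr (5.07 ± 0.29), Arnt (3.83 ± 0.21), Cyp1a1 (3.18 ± 0.37) and Ahrr (0.084 ± 0.040). The ranges of Arnt and Cyp1a1 overlapped there, and no other neighbours did. In wild type cells the order was Tiparp (49.1 ± 7.5 CPM per kb), Cyp1b1 (41.0 ± 6.8), Cyp1a1 (9.68 ± 0.78), Ahr (6.91 ± 0.47), Arnt (4.68 ± 0.36) and Ahrr (0.063 ± 0.018), with overlap between Tiparp and Cyp1b1 only. Cyp1a1 was therefore below the receptor gene in every knockout library and above it in every wild type library on this scale.

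**Figure D3:**
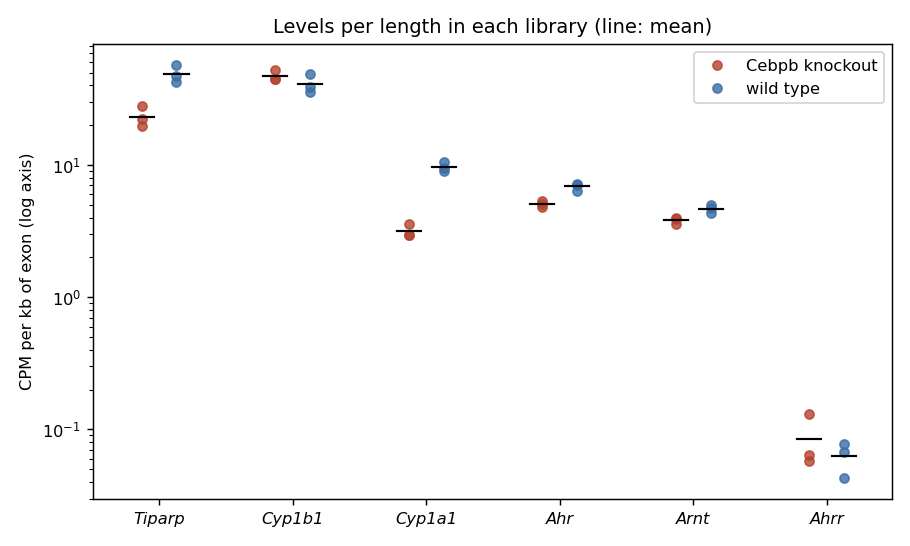
Level of each gene in CPM per kb of exon (log axis) in each knockout and wild type library, with lines at the means. The genes span from 0.084 to 47.0 CPM per kb in knockout cells and from 0.063 to 49.1 CPM per kb in wild type cells.

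Ratios of reads between 2 genes within a library do not depend on how libraries are scaled. Cyp1a1 had 0.0386, 0.0317 and 0.0273 reads per Cyp1b1 read in knockout libraries, against 0.104, 0.127 and 0.111 in wild type libraries. This log2 ratio was lower by 1.82 in knockout libraries, at -4.96 ± 0.25 in knockout and -3.14 ± 0.15 in wild type libraries (SD, n = 3 each), without overlap. Cyp1a1 to Ahr was lower by 1.16 (log2 difference -1.16) and Tiparp to Ahr by 0.64 (-0.64), so both genes were lower relative to the receptor gene too. Cyp1b1 to Ahr was higher by 0.65, also without overlap. Ahrr to Ahr (0.82) and Arnt to Ahr (0.16) overlapped between genotypes. The 4 ratios without overlap reached p = 0.1 in a two-sided exact permutation test, the smallest that 3 against 3 libraries can give (adjusted p = 0.15 over the 6 ratios). The ratios of Cyp1a1 were chosen after its values were seen.

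**Figure D4:**
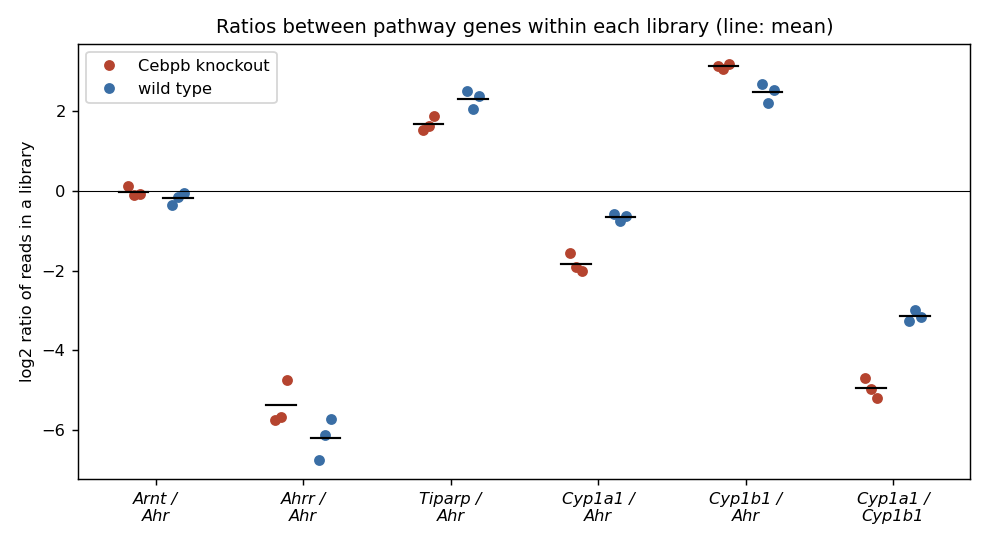
Log2 ratio of reads of the first gene to the second within each knockout and wild type library, with lines at the means. Knockout and wild type libraries are apart in Tiparp, Cyp1a1 and Cyp1b1 to Ahr and in Cyp1a1 to Cyp1b1.

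Other genes of the pathway were described by role, from lists chosen with earlier results of these data known. Beside the counts of this and the following lists, 24.8% of all genes tested were called higher and 23.7% lower, or 48.6% in either direction. These shares hold for TMM. With library totals 6478 of the 17659 genes were called higher and 2452 lower, against 4387 and 4192 with TMM. List counts with library totals are to be read beside those. Of 7 genes of the cytosolic AHR complex and its turnover, 2 rose, 3 fell and 2 were not called (median log2 fold change -0.09). Hsp90aa1, an HSP90 gene, fell to 1648 ± 73 CPM in knockout cells, against 2281 ± 163 CPM in wild type cells (-0.47). Src, a kinase reported in this complex, rose by 0.40, and Cul4b, part of a ubiquitin ligase that can include AHR, by 0.37. Cul4b lies on the X chromosome, and its rise cannot be told apart from the difference in sex of the cells. The count of falls was 1 with library totals and without wild type replicate 2 or 3 or knockout replicate 5 or 6.

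Of 10 bHLH-PAS relatives, 8 were tested, of which 2 rose, 4 fell and 2 were not called (median -0.40). Hif1a, the hypoxia factor that also pairs with ARNT, stood at 82.7 ± 1.0 CPM in knockout and 139.6 ± 5.2 CPM in wild type cells, a fall of 0.75 log2 units. Epas1, which encodes HIF-2α, fell by 1.86, and Arnt2, the second ARNT gene, fell by 1.50 from a low level, with 0.820 ± 0.081 CPM in knockout cells against 2.32 ± 0.30 CPM in wild type cells. Bmal1, the clock partner that is related to ARNT, rose by 1.30.

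Coregulators of AHR and AHRR had 2 of 15 higher, 8 lower and 5 not called (median -0.26), or 4 higher and 3 lower with library totals. Ncoa1, a coactivator gene, fell by 1.06 and Macrod1, whose product removes ADP-ribose from proteins, by 1.52, to 9.87 ± 1.12 CPM in knockout cells against 28.2 ± 2.1 CPM in wild type cells.

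Other AHR-responsive genes did not move as one group. Of 12, 10 were tested, and 2 rose, 6 fell and 2 were not called (median -0.97). Xdh, the xanthine oxidoreductase gene, was at 6.43, 7.32 and 6.99 CPM in knockout libraries and 53.6, 47.8 and 49.9 CPM in wild type libraries, a fall of 2.87 ± 0.09 log2 units (SE, edgeR adjusted p = 5.55e-13). Nqo1, a quinone reductase gene that NRF2 also controls, stood at 25.7, 21.9 and 28.1 CPM in knockout libraries and 12.9, 12.5 and 13.7 CPM in wild type libraries. It rose by 0.95 ± 0.10 (SE, edgeR adjusted p = 1.01e-06). Xdh and Nqo1 thus differed in direction, each with no overlap between genotypes. Selenbp1, a selenium-binding protein gene, fell by 1.89 from a low level, with 0.418 ± 0.197 CPM in knockout cells against 1.55 ± 0.28 CPM in wild type cells. Aldh3a1, an aldehyde dehydrogenase gene, was at 0.351 ± 0.099 CPM in knockout and 0.299 ± 0.038 CPM in wild type cells and was not called (0.23, edgeR adjusted p = 0.676). The Ugt1a genes in this list share exons, so their values are uncertain. With a minimum mean of 1 CPM the count of falls in this list was 3, because Selenbp1, Ugt1a6b and Ugt1a7c were then too low to be tested.

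Of 4 genes that serve P450 enzymes or handle their products, 2 fell and 2 were not called (median -0.21), or 2 higher and 2 lower with library totals. Por, the reductase that passes electrons to CYP1A1 and CYP1B1, was at 107.1, 108.01 and 97.9 CPM in knockout libraries and 202, 195 and 184 CPM in wild type libraries. It fell by 0.89 ± 0.06 log2 units (SE, edgeR adjusted p = 6.49e-09). Ephx1, an epoxide hydrolase gene, fell by 0.50, and Cyb5r3, a cytochrome b5 reductase gene, was not called (0.11, edgeR adjusted p = 0.113), although it was with library totals (0.31).

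Of 13 genes of tryptophan uptake and the kynurenine route, a source of AHR ligands inside cells, 6 were tested, 2 fell and 4 were not called (median -0.19). With library totals 2 were higher and 1 lower, and without knockout replicate 4 the counts were 1 and 1. Tdo2, Kmo, Kynu and Aadat had 0 counts in all 6 libraries. Ido1, an enzyme gene at the entry of that route, had 0, 0 and 0 counts in knockout libraries and 0, 4 and 1 counts in wild type libraries. A count of 0 allows up to 3 counts, which is 0.0349 CPM or less in every library, counting error only. Kyat1, a transaminase gene, fell by 0.82, and Slc3a2, the shared chain of the tryptophan carrier, by 0.22. The call of Slc3a2 was lost with library totals (-0.018) and without knockout replicate 4 (-0.17, edgeR adjusted p = 0.0524, with a range of 0.00234 to 0.818 over 13 alternatives). Slc7a5, the carrier's other chain, stood at 98.9 ± 5.9 CPM in knockout and 94.5 ± 4.6 CPM in wild type cells and was not called (0.06, edgeR adjusted p = 0.441), but was with library totals (0.26). Afmid, a kynurenine formamidase gene, was not called (0.65, edgeR adjusted p = 0.0900), and was with library totals (0.85) and without knockout replicate 4 (0.89, edgeR adjusted p = 0.0250, with a range to 0.273 over 12 alternatives).

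All 6 epidermal genes listed that AHR ligands raise in keratinocytes fell (median -2.21). The count was 5 with library totals and without wild type replicate 1 or 3 or knockout replicate 4 or 5. It was also 5 with a minimum mean of 1 CPM, where Flg2 was too low to be tested. The falls differed in size. Ivl, the involucrin gene, fell least, to 25.3 ± 1.1 CPM in knockout against 29.7 ± 1.9 CPM in wild type cells (-0.23, edgeR adjusted p = 0.0282). Ovol1, a transcription factor gene through which AHR acts on filaggrin, was at 38.3, 45.6 and 45.7 CPM in knockout libraries and 284, 221 and 227 CPM in wild type libraries. Its fall was 2.50 ± 0.10 log2 units (SE, edgeR adjusted p = 9.47e-11). Flg, the filaggrin gene, was at 9.22 ± 2.16 CPM in knockout and 21.9 ± 3.1 CPM in wild type cells (-1.25), and Hrnr, the hornerin gene, at 0.200 ± 0.153 CPM in knockout and 3.94 ± 0.31 CPM in wild type cells (-4.26). Keratinocyte markers moved in the same direction, with 6 of 8 lower and 1 higher; their part in this result was not tested.

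**Figure D5:**
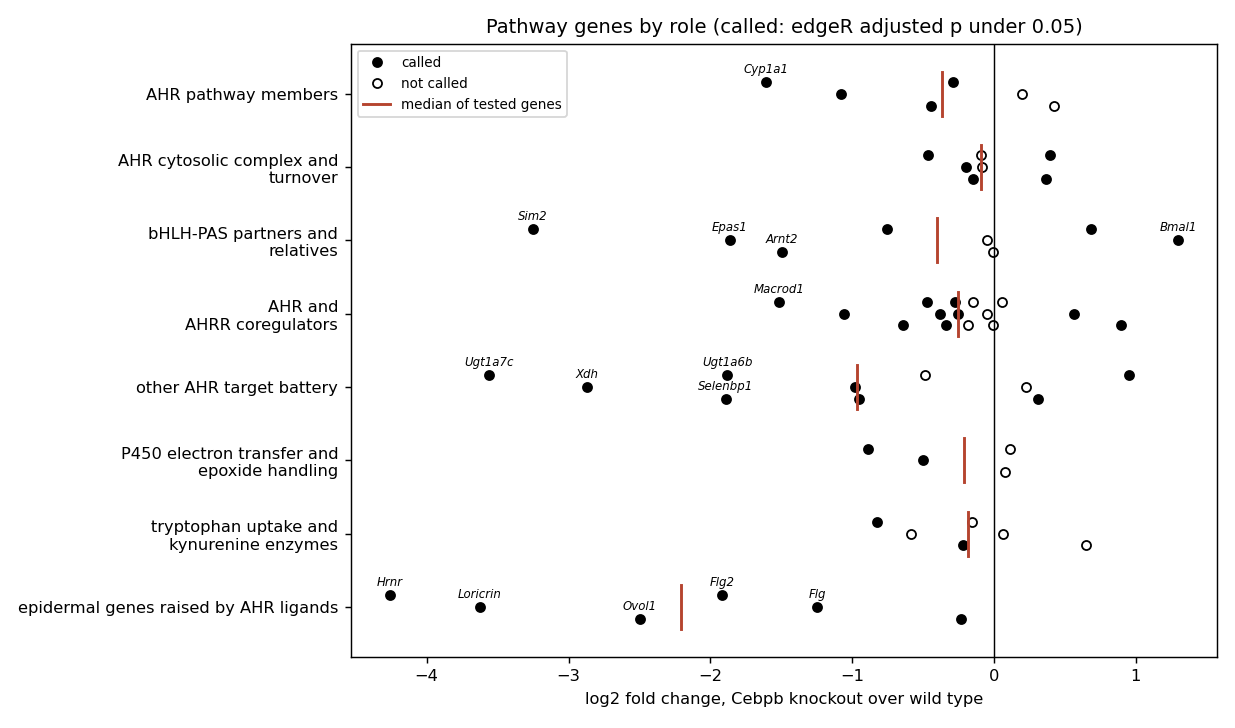
Log2 fold changes (knockout over wild type) of the tested genes of each list, filled where called by edgeR, with red lines at list medians and names beyond 1.2 log2 units. The medians range from -2.21 for epidermal genes to -0.09 for the cytosolic complex.

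Among 11202 candidates averaging 2 CPM or more, the genes nearest to each of the 6 genes were found by the Euclidean distance of centred log2 CPM over the 6 libraries. The distance is small where a gene moves by a like amount between the genotypes. Nearest to Cyp1a1 were Usp54 (distance 0.147), Tnfrsf21 (0.183) and Slc5a5 (0.202). Nearest to Tiparp were Crabp1 (0.156), Bnc1 (0.175) and Sema3c (0.205), and nearest to Cyp1b1 were Ift57 (0.0991), Spry2 (0.110) and Rhbdd1 (0.119). Ahr lay nearest to Arrdc2 (0.0923), Fgfr3 (0.0970) and Mbp (0.102), and Arnt to Pkn2 (0.0464), Scaf11 (0.0603) and Kpna1 (0.0620). The distances of Ahrr were larger, with Tpmt (0.367), Atr (0.374) and Erc2 (0.381) closest. Ahrr was below the 2 CPM that a candidate needed, and none of the other 5 genes was among those 3 nearest to another of the 6.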

How the data were processed

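Total RNA of 6 libraries was sequenced as paired reads, per the labels' protocols. A table was deposited, with unnormalised whole-number counts for each gene and library. FastQC, STAR, HTSeq and DESeq2 with the builds mm39 and GRCm39 are named, per the submitters' processing notes; those notes, as used here, give no versions, no annotation release and no strandedness. Symbols were matched by Ensembl identifier for 52083 of 55416 genes, with older symbols where needed.

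Genotype was tested with edgeR 4.0.16 (R 4.3.3): quasi-likelihood with robust dispersion, filterByExpr at 10 counts, TMM, and Benjamini-Hochberg adjustment over 17659 genes, called under 0.05. The SE is the log2 fold change over the square root of F. The fits were tested on simulated data with 200 changed genes, balanced up and down, and a common dispersion. In the data 8579 genes were called, so that simulation cannot test the choice of scaling. Ratios of reads and the likeness measure had 0.5 added to the counts or CPM. Exon lengths came from GENCODE M21, an older annotation than the authors' build. DESeq2 1.42.0 and limma 3.58.1 served as alternatives.

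Whether libraries of a genotype stem from separate animals or cultures is not stated. The p-values therefore reflect only library-to-library spread, possibly technical. Chi-square per degree of freedom was 19.7 to 46.9 between libraries of a genotype, so none was counted as the same library sequenced again. This measure cannot tell whether the libraries came from separate animals or cultures. The 6 genes and the 7 other lists were chosen with earlier results of these data known. Named were, besides the 6 genes and Cebpb, the 3 tested genes with the smallest p of each list, a fixed set of genes whatever their values, and the 3 nearest genes of each of the 6; some genes that this rule names are not reported here.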

Additional observations from a re-analysis of the deposited data

How the results depend on the processing

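No paired analysis was made, because the animals and cultures behind the libraries are not stated. Across 13 alternatives (DESeq2 size factors, library totals, no filter, a minimum of 1 CPM, DESeq2, limma voom, thinning to the smallest total, and each library left out), Ahr (-0.51 to -0.25), Cyp1a1 (-1.71 to -1.41) and Tiparp (-1.23 to -0.88) kept their direction and call. Library totals moved the count of genes called lower to 2452, against 4192, and that of genes called higher to 6478, against 4387. They also ended the call of Arnt (-0.090), since they raise the median of all genes by 0.20. Against that median Arnt was still lower. Cyp1b1 was called higher with library totals (0.40) and with no filter (0.20), which made 1 gene of the 6 called higher in each. With 1 library left out, the range was 0.10 to 0.34 for Cyp1b1, called without wild type replicate 1 only, -0.35 to -0.24 for Arnt, -0.033 to 0.63 for Ahrr and 0 to 1 for the count of the 6 genes called higher. Aldh3a1 turned to -0.026 without knockout replicate 6 and was not called. Thinning moved none of the 6 ratios beyond the replicate spread. Ahrr, at 45 to 106 counts, was 0.43 when thinned (SE 0.35, as at full depth). Causes other than the scaling were not tested.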

Other observations

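Ptgs2, the cyclooxygenase-2 gene that UVB induces in skin partly through AHR, belongs to the list of AHR-responsive genes and is described here after its values were seen. It was at 101, 119 and 163 CPM in knockout libraries 4, 5 and 6, and at 299, 202 and 239 CPM in wild type libraries 1, 2 and 3. It fell by 0.95 ± 0.20 log2 units (SE, edgeR adjusted p = 0.00525). Ptgs2, Tiparp, Cyp1b1 and Cyp1a1 each had their highest wild type value in library 1. Among knockout libraries Ptgs2, Tiparp and Cyp1b1 were highest in library 6 and Cyp1a1 in library 4.

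Bmal2, the second BMAL gene of the bHLH-PAS family, was also higher in knockout cells (0.69, called by edgeR), while Sim2 of the same family had 6, 4 and 10 counts in knockout libraries and 96, 74 and 59 counts in wild type libraries. Both were chosen after their values were seen.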
